A study of Homo sapiens with 3 samples.

Results

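Replication start calls were examined at 10 genes whose products license DNA for replication, namely MCM2, MCM3, MCM4, MCM5, MCM6, MCM7, CDC6, CDT1, GMNN and ORC1. The genes were taken from a named list with their spans on the human assembly hg19, and each span was widened by 10 kb on either side to give the gene's window. They were listed by their role, not by a measured value, although earlier results of these data were known when they were chosen. The data were short nascent strand sequencing (SNS-seq), which isolates short RNA-primed strands that resist lambda-exonuclease and so maps sites where replication has just begun. The 3 replicates were untreated HCT116 cells, a line derived from a human colorectal carcinoma, and formed a single group with no contrast between conditions. Diffuse regions had been called with EPIC2 and summits of 1 base with MACS2, separately for each replicate. The 10 windows held 51 of 124492 EPIC2 regions in replicate 1, 14 of 44482 in replicate 2 and 40 of 78820 in replicate 3. They held 65, 20 and 50 summits, out of 218034, 62924 and 161994 on chromosomes 1 to 22, X and Y.

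Licensing takes place before S phase. ORC1 is the largest subunit of the origin recognition complex, which marks origins on chromatin. CDC6, an ATPase, and CDT1 then help to load the ring of MCM2 to MCM7, the core of the replicative helicase, onto DNA as an inactive double hexamer. GMNN encodes geminin, which binds CDT1 and prevents a further round of loading after S phase has begun. Most of these genes are transcribed at the entry into S phase under E2F transcription factors, and origins of mammalian cells are often found at the start sites of transcribed genes. The values below describe where replication starts at the DNA of these genes, not how much protein they make.

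Replicate 2 had the fewest calls of both kinds and replicate 3 the widest EPIC2 regions, with a median of 3400 bases against 1600 in replicate 1 and 2800 in replicate 2. The lists give calls without read numbers, so the depth of each library is unknown. A call that is missing in one library therefore cannot be told apart from one missed through low depth. No test was run, because an exact 2-sided sign test over 3 replicates cannot go below p = 0.25. Values are given per replicate, beside the same value over the whole genome.

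Replication start calls were denser over the licensing genes than over the genome as a whole. EPIC2 regions took up 27.4%, 15.0% and 44.9% of the bases of the 10 windows in replicates 1, 2 and 3, which averages 29.1% ± 15.0 (SD, n = 3). Over all bases with calls nearby the shares were 9.19%, 4.76% and 11.2% in the same order. The windows thus held 2.98, 3.15 and 4.01 times the genome's share, a mean ratio of 3.38 ± 0.555 (SD, n = 3), with every replicate above 1. The surroundings of these genes were themselves rich in calls. Measured against 1 Mb on each side of each window the mean ratio was 1.76 ± 0.258 (SD, n = 3), and against the whole chromosome it was 2.45 ± 0.402 (SD, n = 3). Summits gave the same direction at a smaller size, with 2.17, 2.31 and 2.25 times the genome's density in replicates 1, 2 and 3, a mean of 2.24 ± 0.0718 (SD, n = 3). Against 1 Mb on each side the summit ratio was 1.53 ± 0.0715 (SD, n = 3).

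The 10 genes differed widely in how much of their window was covered. CDT1 stood highest, with 72.5%, 83.5% and 96.9% in replicates 1, 2 and 3. Its mean of 84.3% ± 12.2 (SD, n = 3) was the only one above 50%, and in replicates 2 and 3 no other window came near it. By its mean MCM7 came next, with 68.3%, 22.1% and 58.7%, which lay below CDT1 in every replicate. MCM2 was the most even of the genes, at 28.1%, 31.3% and 34.9%. MCM5, MCM4, ORC1 and CDC6 followed MCM2 closely, with means between 30.3% and 26.6% and SDs from 16.4 to 32.3, so their order is not resolved. MCM6 (14.4% ± 9.81, SD, n = 3), MCM3 (12.3% ± 11.2) and GMNN (10.5% ± 9.11) had the lowest means, again closer to each other than their spread. Taken by role, the helicase subunit windows were covered to 26.9%, 11.3% and 40.2% in replicates 1, 2 and 3, and the other 4 genes, CDT1 among them, to 28.1%, 21.6% and 53.3%. With CDT1 among them the other genes were thus higher within each replicate. The means of 26.1% ± 14.5 and 34.3% ± 16.7 (SD, n = 3) lay closer than the spread between libraries. In replicate 1 only CDT1 of these 4 exceeded the helicase value, with CDC6 at 17.2%, GMNN at 16.1% and ORC1 at 20.9%. In replicate 2 CDC6 and GMNN had no coverage and ORC1 had 18.8%. In replicate 3 CDC6 had 62.6%, ORC1 48.2% and GMNN 15.4%. The contrast without CDT1 was not computed.

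**Figure D1:**
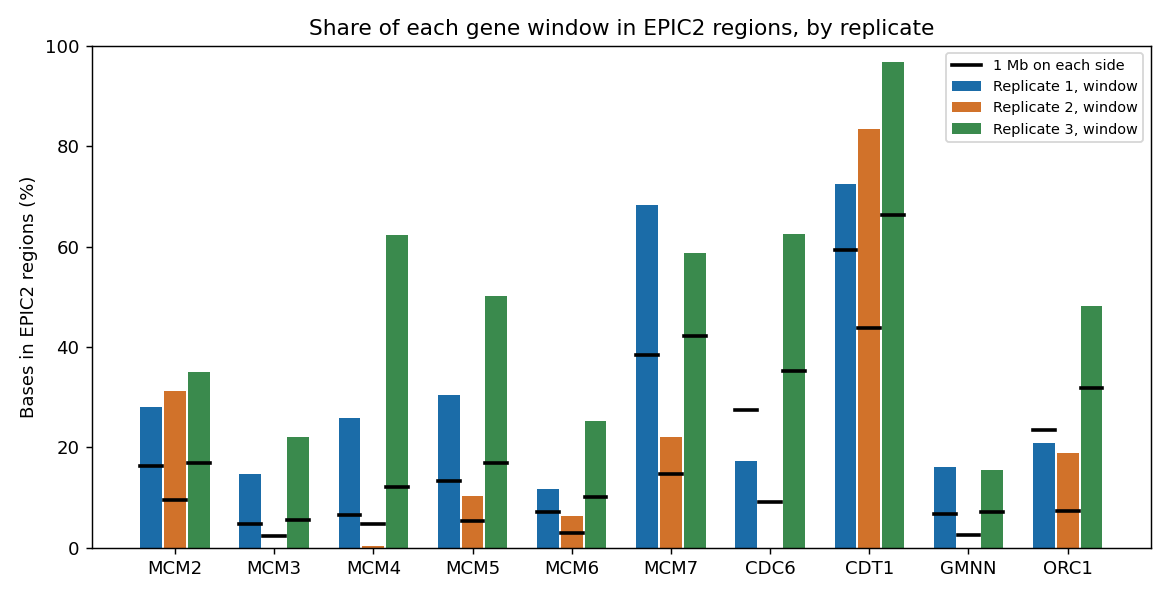
Share of each gene window (gene and 10 kb each side) that lay in EPIC2 regions, in percent, for replicates 1 to 3 (bars), with the share over 1 Mb on each side of that window in the same replicate (black lines). CDT1 reached 96.9% in replicate 3, while MCM3, CDC6 and GMNN had no region in replicate 2.

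The genes also differed in their surroundings. CDT1 lay in the richest surroundings, where 56.5% of the bases within 1 Mb on each side were in EPIC2 regions (mean of 3 replicates), against 16.3% for chromosome 16 as a whole. MCM7 had 31.8% in its surroundings, CDC6 23.9% and ORC1 20.9%. MCM3 (4.19%), GMNN (5.40%), MCM6 (6.68%) and MCM4 (7.80%) lay in poorer ones. All 10 windows had a mean coverage above that of their own surroundings, and 9 of 10 above that of their chromosome. CDC6 was the exception for the chromosome, with 26.6% against 30.9% for chromosome 17. Replicate by replicate, 5 genes (CDT1, MCM7, MCM2, MCM5 and MCM6) exceeded their surroundings in all 3 libraries, 4 genes in 2, and CDC6 in replicate 3 alone. The summit densities did not follow the coverage for every gene. They exceeded the surroundings in all 3 replicates for 7 genes (CDC6, CDT1, GMNN, MCM2, MCM4, MCM5 and MCM6). They did so in 1 replicate for MCM3 and ORC1, and in none for MCM7. At ORC1 that was replicate 1, the library where its coverage was below its surroundings. By summits per 100 kb, CDC6 was above its surroundings in all 3 replicates, with 17.01, 11.3 and 14.2 against 13.4, 3.4 and 8.6. MCM7 was below in all 3, with 13.8, 3.45 and 6.89 against 14.65, 4.7 and 8.9. Whether DNA copy number moves with these shares was not tested, since the lists hold no copy number.

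The starts of these genes were often inside a region. A gene's start is the end of its hg19 span from which it is transcribed, and positions are given from it, negative upstream and positive in the direction of transcription. Of the 10 starts, 6, 4 and 9 lay in an EPIC2 region in replicates 1, 2 and 3 (6.33 ± 2.52 on average, SD, n = 3), beside the 9.19%, 4.76% and 11.2% of all bases given above. MCM2, MCM6, MCM7 and CDT1 had their start covered in all 3 replicates. MCM4 and MCM5 had it in replicates 1 and 3. MCM3, CDC6 and GMNN had it in replicate 3 only, the library with the widest regions, and ORC1 in none. Among the helicase subunits 5, 3 and 6 of 6 starts were covered in replicates 1, 2 and 3, and among the other genes 1, 1 and 3 of 4. The genome shares are over all positions and not over gene starts, because no hg19 annotation was used here.

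Summits were denser near the starts than in the rest of the windows. For 6, 4 and 8 genes in replicates 1, 2 and 3 a summit lay within 1 kb of the start, where 14.4%, 4.30% and 11.0% of all 2 kb windows of the genome held one. The density of summits within 2 kb of the starts was 1.43, 2.97 and 2.81 times that in the rest of the windows, a mean of 2.41 ± 0.847 (SD, n = 3). The nearest bases held the most. Within 500 bases of the 10 starts there were 4 summits in each replicate, a density of 4 per 10 kb, against 1.5, 0.167 and 1.67 per 10 kb at 2 to 5 kb in replicates 1, 2 and 3. In replicate 3 the density from 500 to 1000 bases was also 4 per 10 kb. In replicate 1 it was 2 per 10 kb there and again at 5 to 10 kb, so in that library the excess lay within the first 500 bases. Gene bodies had 0.928, 0.833 and 0.939 times the summit density of the flanks, a mean of 0.900 ± 0.0586 (SD, n = 3). With equal numbers of summits per replicate the values were 1.39, 0.833 and 0.763, so the direction turned in replicate 1.

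**Figure D2:**
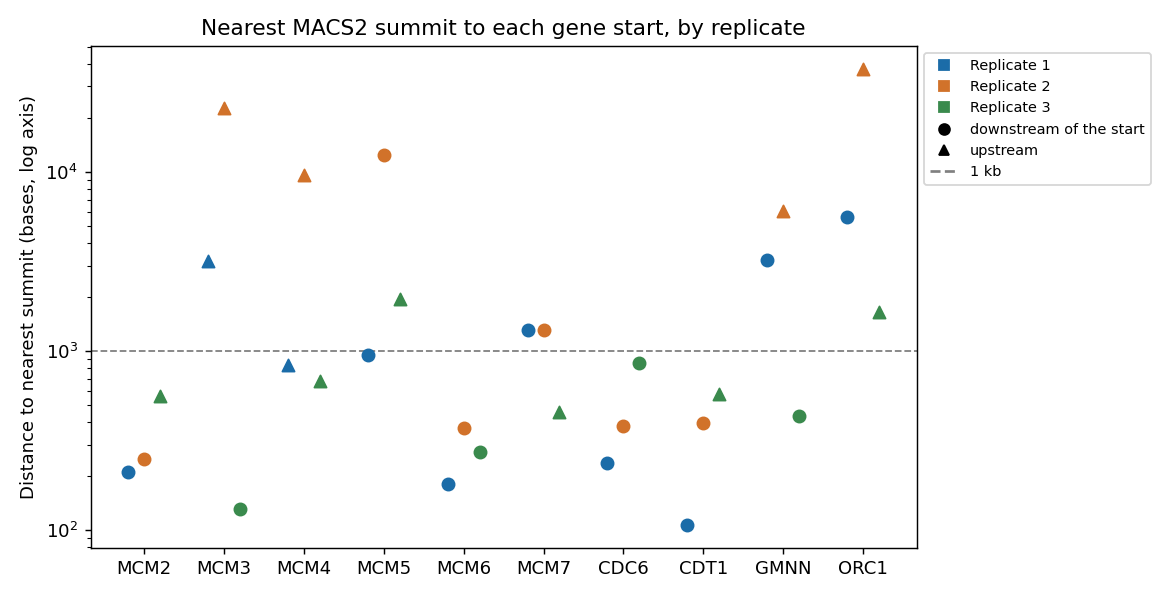
Distance in bases (log axis) from each gene start to the nearest MACS2 summit, for replicates 1 to 3. Circles lie downstream of the start and triangles upstream, and the dashed line marks 1 kb. MCM2, MCM6, CDC6 and CDT1 have a summit within 1 kb in all 3 replicates and ORC1 in none.

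The sequences just upstream of the starts had a high content of CpG, which was not itself a criterion for listing the genes. Below are the 250 bases before the RefSeq start on GRCh38.p14 for the 4 genes whose start was covered in all replicates, and for ORC1, whose start was covered in none. They run 5′ to 3′ on the strand of the gene, and capitals mark each CpG. They were matched by gene name, not by position, since the calls are on hg19, and the RefSeq start need not be the start used for the calls. MCM7 has 3 RefSeq starts, of which the first listed is shown.
MCM2, chr3:127598161-127598410, plus strand: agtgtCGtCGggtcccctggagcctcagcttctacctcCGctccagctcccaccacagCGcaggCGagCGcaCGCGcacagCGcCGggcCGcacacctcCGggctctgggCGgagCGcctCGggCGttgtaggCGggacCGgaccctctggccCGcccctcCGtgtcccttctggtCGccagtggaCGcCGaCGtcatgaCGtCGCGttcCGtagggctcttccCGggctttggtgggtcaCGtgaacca
MCM6, chr2:135876444-135876693, minus strand: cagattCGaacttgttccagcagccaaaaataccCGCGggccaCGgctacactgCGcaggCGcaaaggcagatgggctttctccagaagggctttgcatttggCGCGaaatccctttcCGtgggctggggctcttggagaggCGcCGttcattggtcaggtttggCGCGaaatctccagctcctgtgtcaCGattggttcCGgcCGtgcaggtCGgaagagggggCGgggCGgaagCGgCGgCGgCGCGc
MCM7, chr7:100101398-100101647, minus strand: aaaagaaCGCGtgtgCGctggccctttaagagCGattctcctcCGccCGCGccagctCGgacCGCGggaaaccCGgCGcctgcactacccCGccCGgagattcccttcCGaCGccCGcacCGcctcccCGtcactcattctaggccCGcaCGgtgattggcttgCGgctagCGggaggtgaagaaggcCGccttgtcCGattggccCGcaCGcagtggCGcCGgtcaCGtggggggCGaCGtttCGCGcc
CDT1, chr16:88803539-88803788, plus strand: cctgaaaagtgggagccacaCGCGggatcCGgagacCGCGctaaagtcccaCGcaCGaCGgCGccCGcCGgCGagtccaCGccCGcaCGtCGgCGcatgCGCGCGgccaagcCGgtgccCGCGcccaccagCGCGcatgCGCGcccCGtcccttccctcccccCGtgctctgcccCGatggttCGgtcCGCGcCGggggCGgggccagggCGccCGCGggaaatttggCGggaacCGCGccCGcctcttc
ORC1, chr1:52404424-52404673, minus strand: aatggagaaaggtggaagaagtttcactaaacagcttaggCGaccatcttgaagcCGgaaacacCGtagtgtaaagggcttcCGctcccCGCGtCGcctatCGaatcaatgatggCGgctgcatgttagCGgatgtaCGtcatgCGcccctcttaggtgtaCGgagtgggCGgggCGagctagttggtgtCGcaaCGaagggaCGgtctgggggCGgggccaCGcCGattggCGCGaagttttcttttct

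Such a sequence was used for 8 of the 10 genes, all but MCM4 and MCM5. Sequences on chromosome 8, where MCM4 lies, were left out for the 10 genes but kept in the set of all genes. The ratio of observed to expected CpG had a median of 0.978 in these 8 (0.756 in CDC6 to 1.18 in ORC1), against 0.556 over 27303 genes. The larger set was not matched to the 8 in expression or kind of gene, so the difference need not be particular to them. CDT1 had 42 CpG and 76.4% G and C, MCM7 34 and 68.8%, MCM2 30 and 70.8%, MCM6 24 and 62.8%, and ORC1 23 and 56.8%. ORC1 thus had the highest CpG ratio of the 8 although no region covered its start, and its share of G and C was near the median of 58.0% over all genes. A G-quadruplex pattern, meaning at least 4 runs of 3 or more G with spacers of 1 to 7 bases on either strand, was present in MCM2, CDT1 and GMNN, against 22.6% of all genes. The E2F words TTTGGCGC and TTTCGCGC, searched on both strands, were present in MCM6 at 2 places and in MCM7 at 1, against 0.996% of all genes. No other form of the E2F motif was searched, so a gene without these exact words may still hold a variant. CCAAT, also on both strands, was present in 5 of the 8 and in 33.0% of all genes. These are matches of letters in a short window and not sites shown to be bound.

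**Figure D3:**
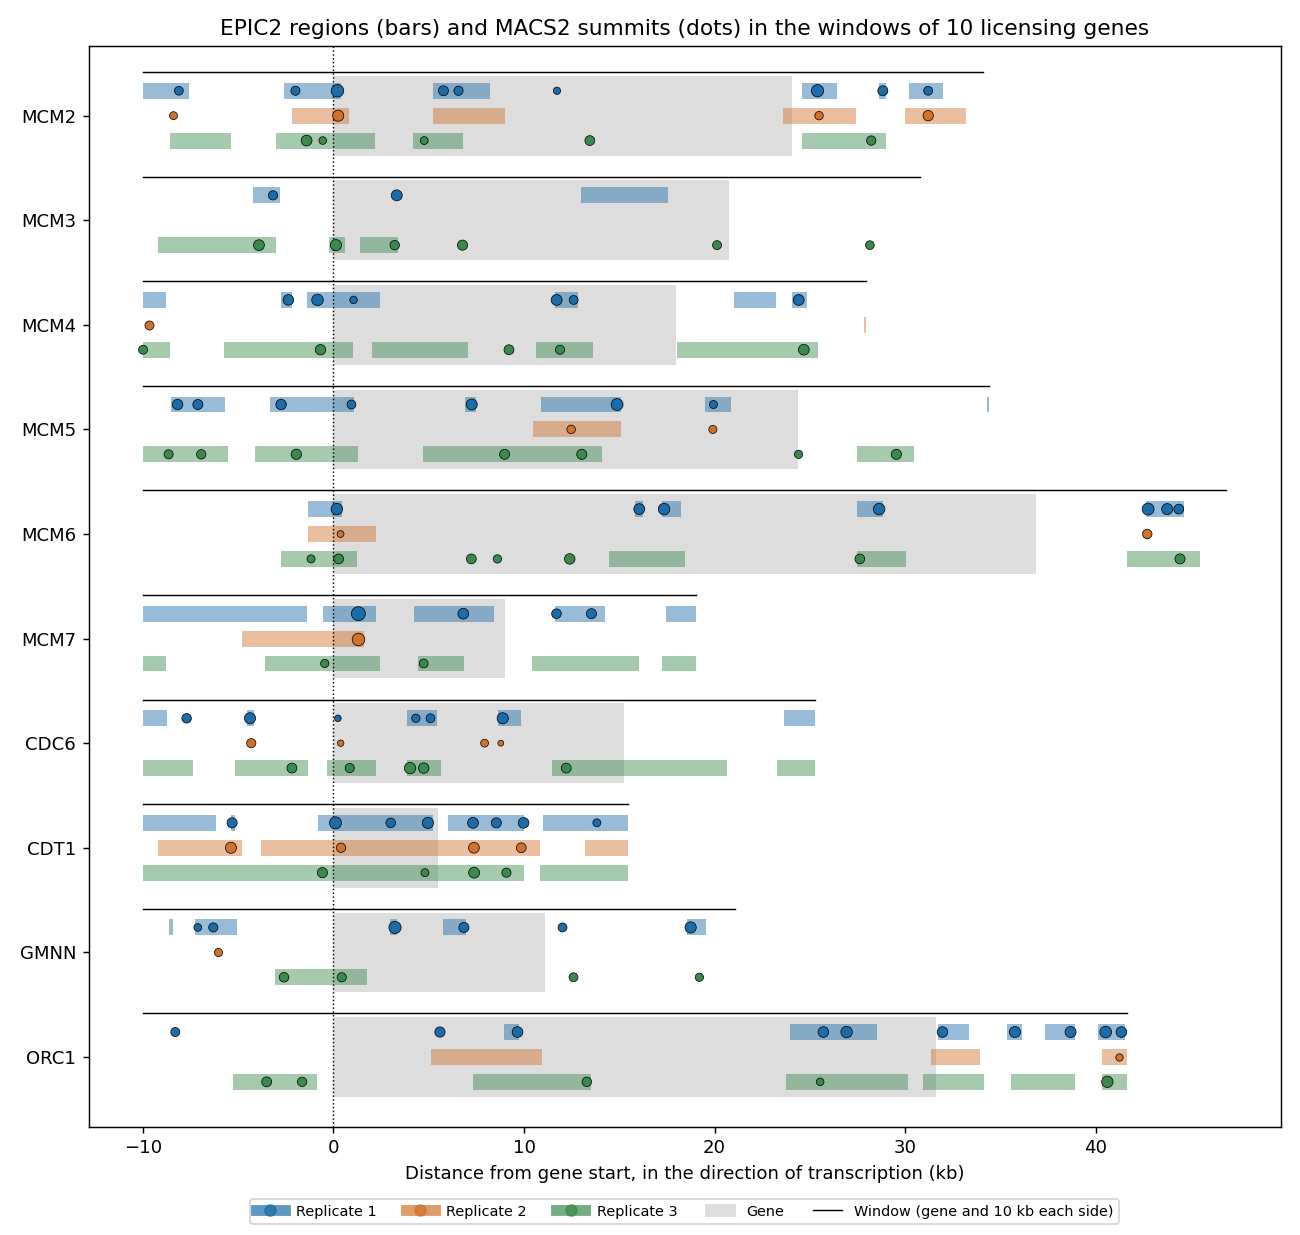
Calls in the window of each gene, aligned at the gene start and drawn in the direction of transcription (kb). Coloured bars are EPIC2 regions, cut at the window edge, and dots are MACS2 summits, larger with a higher score, with 1 row per replicate. Grey marks the gene and the thin black line the window. Regions cross the start of MCM2, MCM6, MCM7 and CDT1 in all 3 rows.

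MCM2 (chromosome 3, 127317200 to 127341278, plus strand) had the most regular pattern of the helicase genes. Its start lay in regions from -2599 to 400 in replicate 1, -2199 to 800 in replicate 2 and -2999 to 2200 in replicate 3. The strongest summits there were at 212 with a score of 19.0 (−log10 of the q-value), at 250 with 8.53 and at -1408 with 7.15. Replicates 1 and 2 thus placed their summit at nearly the same base, and replicate 3 placed its own upstream. A second place, from 23601 to 29000 across the end of the gene, also held a region and a summit of all 3 replicates, with top scores of 15.9, 2.45 and 3.66.

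MCM6 (chromosome 2, 136597196 to 136634047, minus strand) was the only gene with a summit within 500 bases of its start in every replicate. These summits lay at 180, 372 and 272, with scores of 10.3, 1.40 and 4.52 in replicates 1, 2 and 3. The summit of replicate 2 stood at the 4.58 percentile and would be lost at a q-value of 0.01. The covering regions ran from -1353 to 446, from -1353 to 2246 and from -2753 to 1246. Replicate 2 had no other region in this window, the widest of the 10, while replicates 1 and 3 also shared places in the gene body, from 27447 to 30046, and past its end, from 41647 to 45446.

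MCM7 (chromosome 7, 99690404 to 99699427, minus strand) held the highest summit score of the 10 windows in replicates 1 and 2. In replicate 1 the summit at 1307 had a score of 45.9 and in replicate 2 the summit at 1305 had 19.0, which is 2 bases away. They stood at the 99.9 and 95.2 percentile of all summits of their replicate. Replicate 3 had no summit within 100 bases of that place, and its highest score in the window was 2.89, at 4736. Its region from -3573 to 2426 did cover the start, so the diffuse call was shared by all 3 libraries and the summit at that base by replicates 1 and 2. The EPIC2 score of the start region was at the 99.97, 97.5 and 80.9 percentile.

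MCM4 (chromosome 8, 48872763 to 48890719, plus strand) and MCM5 (chromosome 22, 35796116 to 35820495, plus strand) had covered starts in replicates 1 and 3 only. At MCM4 the strongest summits near the start were at -836 with 10.6 and at -679 with 5.91. Replicate 2 had 1 summit in the MCM4 window, at -9667, and its only region touched the last 0.119 kb. At MCM5 the start regions ran from -3315 to 1084 and from -4115 to 1284, and the strongest summits within 2 kb had scores of 2.95 at 946 and 5.74 at -1947. Replicate 2 had its only MCM5 region inside the gene, from 10485 to 15084, where replicates 1 and 3 also had regions. That body site and not the start was the place shared by all 3 libraries at MCM5.

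MCM3 (chromosome 6, 52128812 to 52149582, minus strand) had the lowest mean coverage of the helicase genes. Replicate 2 had neither a region nor a summit in its window, the only such case among the 10 genes. In replicate 3 a region of 800 bases, from -218 to 581, covered the start around a summit at 131 with a score of 8.76. In replicate 1 the nearest summit was at -3170 with 3.49. The only place with regions of more than 1 library was upstream, from -9218 to -2819.

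Of the loading factors, CDT1 (chromosome 16, 88870186 to 88875666, plus strand) lay inside a broad stretch of regions. Its start was covered by regions of 6000, 14600 and 41400 bases in replicates 1, 2 and 3. The nearest summits were at 107, 398 and -579, with scores of 13.8, 3.56 and 5.21. A sharper agreement was seen past the gene, where summits lay at 7324, 7372 and 7382 with scores of 7.28, 7.12 and 7.55. Without CDT1 the coverage ratio of the remaining 9 windows over the genome was 2.83 ± 0.784 (SD, n = 3) and the summit ratio 2.07 ± 0.120 (SD, n = 3).

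CDC6 (chromosome 17, 38444146 to 38459413, plus strand) had summits at its start without a region in replicates 1 and 2. A summit lay near the start in every replicate, at 236, 379 and 855, but the scores were low, at 1.26, 1.23 and 3.39. Those of replicates 1 and 2 stood at the 0.930 and 3.94 percentile and would be lost at a q-value of 0.01. Replicate 2 had 4 summits and no region in the window, and the start was covered in replicate 3 alone, from -345 to 2254. The strongest CDC6 summits lay elsewhere, with 8.62 at 8883 in replicate 1, 3.48 at -4312 in replicate 2 and 9.94 at 4020 in replicate 3.

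GMNN (chromosome 6, 24775242 to 24786327, plus strand), the gene of the CDT1 inhibitor, was the only one of the 10 where no EPIC2 region of one library overlapped a region of another. Replicate 1 had its strongest summit inside the gene, at 3230 with a score of 15.0. Replicate 3 had its single region over the start, from -3041 to 1758, with a summit at 435 of 3.34. Replicate 2 had no region and 1 summit, at -6076 with 2.19, which lay inside the region of replicate 1 from -7241 to -5042. The summit of replicate 3 at 19202 likewise lay in a region of replicate 1, from 18559 to 19558.

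ORC1 (chromosome 1, 52838501 to 52870131, minus strand) was the only gene with no region over its start in any replicate. The nearest region edge was 8931, 5131 and 870 bases away in replicates 1, 2 and 3, and the nearest summit at 5589, -37647 and -1643. Calls at ORC1 lay mostly in the gene body and past its end. Regions of all 3 libraries overlapped at 3 places, in the gene body around 8931 to 9730, at the end of the gene around 31731 to 33330, and beyond it from 40131 to 43530. At the last of these each library also had a summit inside its region, with top scores of 11.5, 1.65 and 9.77. Coverage of the window was 20.9%, 18.8% and 48.2%, against 23.4%, 7.34% and 31.8% over 1 Mb on each side, so in replicate 1 it was below its surroundings.

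Places supported by both callers and by several libraries were counted next. An EPIC2 region with a summit of its own replicate is called a common region here, and common regions that overlapped across replicates were merged and kept as a consensus origin where at least 2 replicates took part. Of 10 genes, 9 had a consensus origin in the window, against 35.0% of genome windows of the median member width, and the 10 windows held 25 in all. This is 6.30 per 100 kb, against 1.46 over the genome. The values are not strictly alike, because an origin reaching past the edge of a window counted in full, which raises the first. Consensus origins were not compared with 1 Mb on each side. The start itself lay in a consensus origin for 6 genes (MCM2, MCM4, MCM5, MCM6, MCM7 and CDT1), while 7.88% of all bases lay in one. By place, 4 of the 25 were upstream, 6 over a start, 8 in a gene body, 1 across a gene end and 6 downstream. All 3 replicates took part in 8 of the 25, or 32.0%, against 19.1% of the 42075 in the genome. The consensus origins of the windows were also wider, with a median of 5400 bases against 4000 over the genome. The part of width and of call density in the higher share was not tested. The 8 lay at MCM2, MCM5, MCM6, MCM7, CDT1 and ORC1. Replicate 1 took part in 25 of 25 (100%), replicate 3 in 24 (96%) and replicate 2 in 9 (36%). Over the genome the shares were 98.19%, 76.92% and 43.98% in the same order. The near-complete share of replicate 1 and the low share of replicate 2 were thus also found over the genome. Of the 25, 16 rested on replicates 1 and 3 only. Without replicate 1 there were 8 consensus origins, and without replicate 3 there were 10.

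Sharing between libraries was read from the common regions of the windows. In replicate 1, 29 of 43 (67.4%) overlapped a common region of another replicate, in replicate 2 10 of 11 (90.9%) and in replicate 3 24 of 32 (75.0%). Over the genome the shares were 48.4%, 79.0% and 60.9%. The share was higher in the windows in each replicate, on small counts in replicate 2. Summits in the windows also fell in EPIC2 regions of their own replicate at a higher share, with 89.2%, 55.0% and 78.0% against 57.5%, 44.2% and 43.7% over the genome. EPIC2 regions were also denser in the windows, and the part of this in both shares was not tested.

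**Figure D4:**
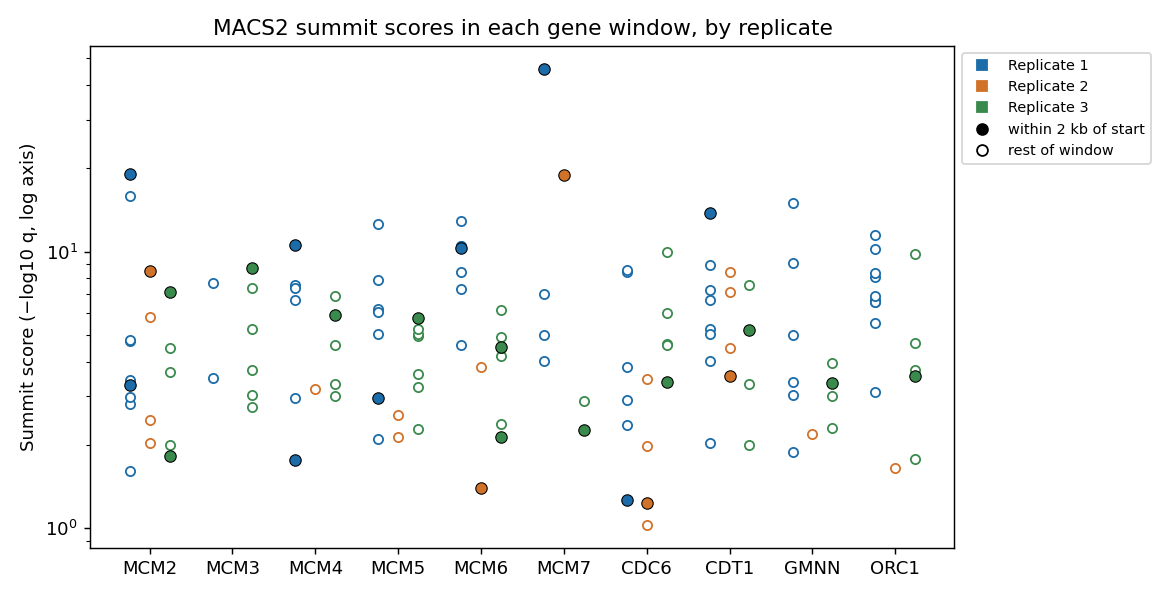
Score of every MACS2 summit in the 10 windows (−log10 of the q-value, log axis), by gene and replicate. Filled points lie within 2 kb of the gene start and open points in the rest of the window. The highest are MCM7 in replicates 1 and 2, at 45.9 and 19.0, and MCM2 in replicate 1, at 19.0.

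Scores were compared as ranks within a replicate, because no source used here gives how they scale between libraries. The strongest summit within 2 kb of the start had a median percentile of 86.0 (7 genes), 52.1 (5 genes) and 65.6 (10 genes) in replicates 1, 2 and 3, which averages 67.9 ± 17.1 (SD, n = 3). The median over all summits of the windows was 66.5, 41.1 and 52.2. Taking the strongest of several summits raises a percentile by itself, so the first set of values is a description of the starts and not a comparison with single summits. In replicate 2 the summits of these windows thus had a median rank below that of the library, and in replicates 1 and 3 above it. EPIC2 regions of the windows ranked above the middle of their library in each replicate, with median score percentiles of 62.9, 62.4 and 74.3, and were wider than usual, with median widths of 1800, 4100 and 4600 bases.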

How the data were processed

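SNS-seq calls from 3 untreated HCT116 replicates were used. Reads had been aligned by the authors to hg19 (Bowtie2 2.3.4.2), who removed duplicates with Picard 2.18.17 and called each replicate with MACS2 2.1.0.20151222 and EPIC2, both at a threshold of 0.1. Use of a control library was not given in the sources used here. Deposited EPIC2 regions carry a score of unstated kind, which served only as a rank. Deposited MACS2 scores were taken for −log10 q-values, their smallest being 1.00.

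EPIC2 starts were taken as 0-based on a grid of 200 bases, with the end included. The genome background was 2885 Mb, the 1 Mb windows holding any call. Read depth is unknown. Strands came from textbook knowledge and were checked against GENCODE 44. GRCh38 served only for names and promoter sequences, where the first RefSeq row per gene was used. All 10 genes are named. The members and measures were chosen with earlier results of these data known, and no test was run. Interval functions were tested on simulated regions. Alternatives covered the q-value, equal numbers of calls, the consensus rule, window sizes, the background and leaving out each replicate. Computation used Python 3.11.15, numpy 2.4.6 and pandas 2.3.3.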

Additional observations from a re-analysis of the deposited data

How the results depend on the processing

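Of 87 alternative values, 61 moved by less than the spread between replicates (for counts, by at most 1.5 times) and 26 moved further. Genes with a consensus origin numbered 6, and starts in one 4, without replicate 1, without replicate 3 or when every replicate had to take part, and starts in one also 4 at 50% reciprocal overlap. No mean ratio crossed 1. The coverage ratio over the genome was 3.99 with equal numbers of EPIC2 regions, 2.73 for genes without flanks, 2.45 against the chromosome and 1.76 against 1 Mb on each side. The summit ratio was 2.58 with equal numbers of summits, 2.12 for genes without flanks, 1.92 against the chromosome, 1.53 against 1 Mb on each side and 2.07 without CDT1. Leaving out CDT1, and the coverage ratio with equal numbers or without flanks, were chosen after seeing the data. Consensus origins numbered 16 with equal numbers of EPIC2 regions, 8 when every replicate had to take part, 16 at 50% reciprocal overlap, 15 for genes without flanks, 60 with flanks of 50 kb and 8 to 24 on leaving out 1 replicate. Starts in a consensus origin numbered 3 when built from summits extended 250 bases each way. Genes with a summit at the start averaged 3.67 with equal numbers of summits and 4 within 500 bases. At a q-value of 0.01 they numbered 5, 2 and 7 in replicates 1, 2 and 3. The summit density beside the starts was 3.40 times the rest within 1 kb. Within 2 kb at a q-value of 0.01 it was 1.16, 2.23 and 2.65 times the rest in replicates 1, 2 and 3. The share of common regions found in another replicate was 48.1% with a reciprocal overlap of 50% and 53.4% to 70.1% on leaving out 1 replicate. The percentile at the starts was 86.7 by EPIC2 score. Gene bodies had 0.770 times the flank density at a q-value of 0.01 and 0.995 with equal numbers of summits, where replicate 1 turned to 1.39. Stricter rules and narrower windows lower counts by construction, and for the other changes the cause was not tested. No paired analysis was possible because no conditions were contrasted, and ratios were taken within each replicate. The coverage in percent does not depend on the background. The lists hold no read depth, so its part in the few calls of replicate 2 was not tested.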

Other observations

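Some summits recurred almost to the base. Within 100 bases, a limit chosen after the values were seen, 15 pairs of summits from different replicates matched in the 10 windows, at 7 genes. Replicates 1 and 2 gave 9 of them, replicates 1 and 3 gave 4 and replicates 2 and 3 gave 2. The closest were at MCM7 (1307 and 1305, 2 bases apart) and beyond the end of MCM2 (31205 and 31208, 3 bases apart). Of the 15 pairs, 4 lay within 2 kb of a start. The share of all summits of the windows that lay there was not computed, so this count is not read as high or low. Of the summits of replicate 2 in the windows, 9 of 20 (45%) had a match in replicate 1, against 37.3% of its summits over the genome. For summits of replicate 3 matched in replicate 1 the share was 8%, against 10.5% over the genome, so close recurrence in these windows was near that of the genome. The place past CDT1 at 7324, 7372 and 7382 and the start of MCM6 were matched in more than 1 pair of replicates.

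Several of the genes start close to a neighbour on the opposite strand. In GENCODE 44, 4 of the 10 have a protein-coding gene on the opposite strand that starts within 1 kb. The share over all genes was not computed, so whether this count is high or low is not known. The 4 are MCM2 with TPRA1, MCM4 with PRKDC, the catalytic subunit of DNA-dependent protein kinase, MCM7 with AP4M1, and ORC1 with PRPF38A. Regions covered the first 3 of these starts in 3, 2 and 3 replicates and the start of ORC1 in none. Distances between the paired starts were not recorded beyond the limit of 1 kb. Calls near such a pair cannot be assigned to either gene from these lists.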
